A study of Mus musculus with 4 samples.

Results

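The genes described here are 9 members of the STAT and SOCS system: the transcription factor genes Stat3, Stat5a, Stat5b and Stat6, the feedback inhibitor genes Cish, Socs1, Socs2 and Socs3, and the kinase gene Pim1. They were chosen by name, as probe sets whose platform annotation gives exactly that symbol, and each of the 9 was found among 19938 genes on the array. Of several probe sets of a gene, the brightest on average was used. The GM-CSF M1 group was C57BL/6J mouse bone marrow grown for 7 days in granulocyte-macrophage colony-stimulating factor (GM-CSF) and sorted for CD45, MHC class II and F4/80 without CD8a. The M-CSF M2 group was marrow of the same strain grown for 7 days with M-CSF (macrophage colony-stimulating factor), given as 20% conditioned medium of L929 fibroblasts, and sorted for CD45, F4/80 and CD11b. No genetic change is listed for either group, and growth factor, conditioned medium and sort gate cannot be told apart. Each group had 2 arrays, and the labels do not say whether the replicates were separate animals or cultures, so the p-values measure the spread between arrays, whatever its source.

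Cytokine receptors without a kinase of their own act through Janus kinases, which phosphorylate STAT proteins so that these pair, enter the nucleus and switch on genes. GM-CSF acts mainly through JAK2 and STAT5, interleukin-4 and interleukin-13 through STAT6, and interleukin-6 and interleukin-10 through STAT3. Cish and the Socs genes are among the genes that STATs switch on, and their proteins bind the receptor or the kinase and damp the signal, so that in many cells their RNA is read as a trace of recent STAT activity. M-CSF acts through a receptor that is itself a tyrosine kinase. STAT proteins are switched on by phosphorylation, which an RNA array does not measure.

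All values are log2 expression values made by the authors with RMA, so a difference of 1 is 2-fold. In such bulk samples, fewer cells of a type and less RNA per cell cannot be told apart. A level of 5.90, the 95th percentile of 1027 olfactory receptor genes averaged over the arrays, served as the background. All 7 macrophage markers (Csf1r, Adgre1, Mertk, Fcgr1, Cd68, Itgam and Cd14) lay above it in both groups. The GM-CSF arrays stood further apart from each other than the M-CSF arrays. The differences between replicates over the 14995 genes tested had an SD of 0.325 in GM-CSF cells and 0.180 in M-CSF cells. Xist, which coats the silenced X chromosome, read 11.58 in GM-CSF replicate 1 and 4.93 in GM-CSF replicate 2, against 4.53 and 4.80 in M-CSF replicates 1 and 2. The Y-linked gene Eif2s3y read 3.66 and 9.10 in GM-CSF replicates 1 and 2, against 9.32 and 9.17 in the M-CSF arrays. GM-CSF replicate 1 thus has the pattern of female cells and the other 3 arrays that of male cells. The GM-CSF arrays are therefore not repeats of 1 RNA sample, and sex differs between them along with anything else that does. For each of the 9 genes the values of all 4 arrays are given below.

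STAT proteins bind palindromes of the form TTCNNNGAA, and STAT6 also binds the wider form TTCNNNNGAA. Both forms read the same on either strand. RefSeq windows (build GRCm38.p6) of 300 bases, with 250 bases before the start and 50 from it on, were at hand for 8 of the 9 genes, without Socs2, in 11 windows. TTCNNNGAA occurred in the windows of Cish and Socs3 and in 8.30% of 32851 windows of all genes, and TTCNNNNGAA in none of the 11 and in 6.95% of all windows. The Cish window held 2 matches, TTCCTGGAA and TTCTTGGAA, 11 bases apart from start to start, and 0.457% of all windows hold 2 or more. The Socs3 window held TTCTTAGAA, which begins 154 bases before the start. The Cish matches begin at bases 1 and 12 from the start on, not before it. The windows of both genes are shown because these are the feedback genes in which the form occurs, with the matches in capitals. Such a match describes the letters and does not show that a factor binds there.
Cish window, chr9:107296409-107296708, + strand: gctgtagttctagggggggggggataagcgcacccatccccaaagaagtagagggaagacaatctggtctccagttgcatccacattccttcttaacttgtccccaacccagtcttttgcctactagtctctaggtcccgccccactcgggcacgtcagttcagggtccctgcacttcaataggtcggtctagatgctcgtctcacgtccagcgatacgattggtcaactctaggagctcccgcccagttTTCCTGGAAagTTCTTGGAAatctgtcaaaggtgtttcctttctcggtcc
Socs3 window, chr11:117969317-117969616, - strand: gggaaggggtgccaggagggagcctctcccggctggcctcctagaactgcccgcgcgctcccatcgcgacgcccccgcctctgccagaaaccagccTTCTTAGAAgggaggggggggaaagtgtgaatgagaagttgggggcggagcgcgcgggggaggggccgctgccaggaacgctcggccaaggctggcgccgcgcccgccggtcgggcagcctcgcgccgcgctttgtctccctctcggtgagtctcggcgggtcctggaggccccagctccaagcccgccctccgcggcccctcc

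Socs1 and Socs3, and less firmly Socs2, were expressed more strongly in GM-CSF cells, while Cish, Pim1 and the STAT genes did not pass the test. Of the 9 genes, 3 (Socs1, Socs2 and Socs3) were higher and 0 lower with limma at a Benjamini-Hochberg adjusted p under 0.05, against 6.18% of all genes tested that were higher and 4.53% that were lower. Socs2 entered the test through its GM-CSF arrays alone, where it is high, and with no filter on low values its adjusted p was 0.0512 (limma) and the count was 2, Socs1 and Socs3. At an unadjusted p under 0.05, 6 were higher and 0 lower, against 12.9% and 12.6% of all genes tested. Both GM-CSF arrays lay above both M-CSF arrays for 7 of the 9, as for 26.3% of all genes tested, 0 lay wholly below (29.2% of all genes), and the arrays overlapped for Stat3 and Stat6. The median log2 difference of the 9 was 0.53, beside -0.01 over all genes tested. With 1 array left out, 1 group has a single array. Fewer of the 9 were then called higher without an M-CSF array and more without a GM-CSF array, as over all genes tested. The log2 difference ranged from 1.56 to 2.24 for Socs1, from 1.92 to 4.34 for Socs2 and from 1.13 to 1.27 for Socs3. Where a GM-CSF array is left out, the M-CSF pair, which lies closer together, is the only source of the spread.

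**Figure D1:**
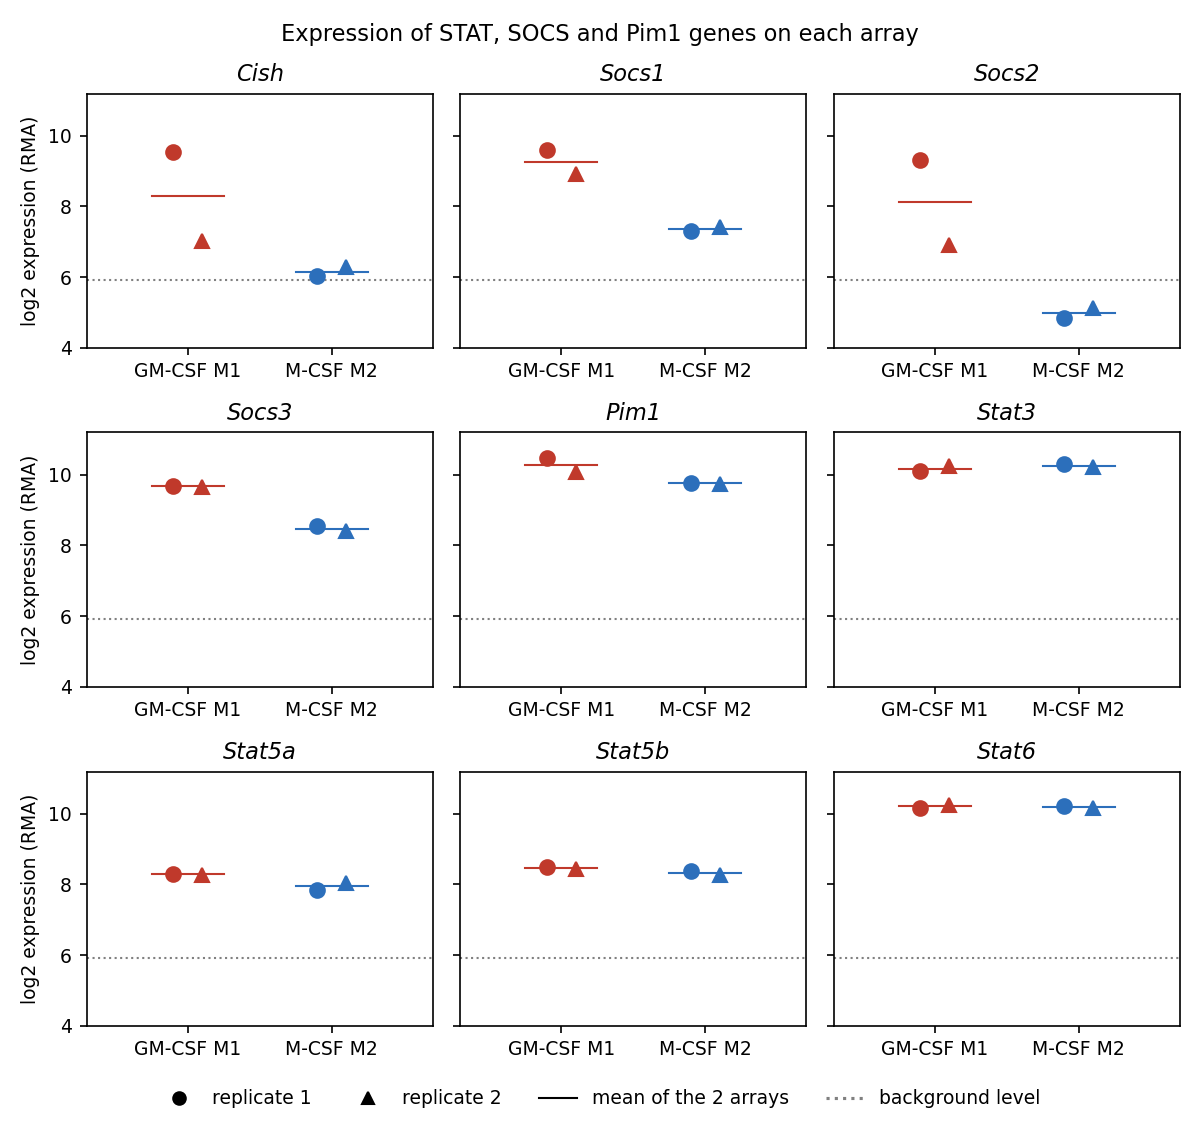
The log2 expression value of each of the 9 genes is shown on each array, with GM-CSF M1 in red on the left and M-CSF M2 in blue on the right, circles for replicate 1, triangles for replicate 2, a line at the mean of the 2 arrays and a dotted line at the background of 5.90. Socs1, Socs2, Socs3 and Cish lie higher on both GM-CSF arrays, Cish and Socs2 with a wide gap between them, and Stat3 and Stat6 sit at the same height in both groups.

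Socs1 encodes an inhibitor that blocks the catalytic site of Janus kinases and is best known for limiting interferon-gamma signalling. It read 9.59 and 8.91 in GM-CSF replicates 1 and 2, against 7.30 and 7.41 in M-CSF replicates 1 and 2. The groups did not overlap, and the gap between the GM-CSF arrays (0.68) was smaller than that between the groups. The log2 difference was 1.90 ± 0.22 (SE, n = 2 per group), or 3.74-fold, with an adjusted p of 0.00446 by limma. The adjusted p was 0.103 without M-CSF replicate 1 and 0.0947 without M-CSF replicate 2 (limma), at differences of 1.85 and 1.95.

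Socs3 encodes the inhibitor that binds the interleukin-6 receptor chain gp130 and the G-CSF receptor and limits STAT3. Its GM-CSF arrays were the closest of the 4 feedback genes, at 9.70 and 9.65 for GM-CSF, against 8.54 and 8.40 for M-CSF. Its log2 difference was 1.20 ± 0.11 (SE, n = 2 per group), 2.30-fold, with an adjusted p of 0.00183 by limma. The call ended without M-CSF replicate 2 (adjusted p = 0.0581, limma). A dimmer probe set of Socs3 read 6.53 and 6.80 in GM-CSF cells against 6.05 and 6.16 in M-CSF cells. With that probe set the difference was 0.56 ± 0.13 and still passed (adjusted p = 0.0466, limma).

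Socs2, a STAT5 target gene known for damping growth hormone signalling, had the largest group difference of the 9 and also a wide spread. It read 9.33 in GM-CSF replicate 1 and 6.91 in GM-CSF replicate 2, against 4.85 and 5.13 in the M-CSF arrays. Both M-CSF values lie below the background, so the fitted difference is set against signal that may not be Socs2. With this probe set, the mean of the GM-CSF arrays was 4.64-fold above the background level, and GM-CSF replicate 2 alone (6.91) lay nearer to that level. The fitted log2 difference was 3.13 ± 0.70 (SE, n = 2 per group), with an adjusted p of 0.0412 by limma. GM-CSF replicate 1 alone was 4.34 above the M-CSF mean and GM-CSF replicate 2 alone 1.92. A second probe set of Socs2 read 7.61 and 6.13 in GM-CSF cells, against 6.02 and 5.56 in M-CSF cells. There the difference was 1.08 ± 0.45, which did not pass (adjusted p = 0.206, limma), so the size of the Socs2 difference depends on the probe set. The call also ended without M-CSF replicate 1 (adjusted p = 0.307, limma) and without M-CSF replicate 2 (0.262).

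Cish, whose protein CIS competes for the STAT5 docking sites of cytokine receptors, did not pass the test. It read 9.54 in GM-CSF replicate 1 and 7.03 in GM-CSF replicate 2, against 6.03 and 6.28 in M-CSF cells. Both GM-CSF values were the higher ones, but the gap between them (2.51) exceeded the group difference of 2.13 ± 0.72 (SE, n = 2 per group, 95% interval 0.37 to 3.89, adjusted p = 0.128, limma). Against the M-CSF mean, GM-CSF replicate 1 was 10.4-fold higher and GM-CSF replicate 2 was 1.84-fold higher. Left out in turn, the GM-CSF arrays each gave a call, at 0.88 without replicate 1 (adjusted p = 0.000439, limma) and 3.38 without replicate 2, again with the spread of the M-CSF pair alone. The M-CSF mean of 6.16 lies just above the background. Cish is the gene whose window holds the pair of TTCNNNGAA matches shown above, and Socs1, which differed by 1.90, holds none in its window.

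Pim1 encodes a serine/threonine kinase that supports cell survival and is a target gene of STAT3 and STAT5. It read 10.49 and 10.09 in GM-CSF cells, against 9.77 and 9.74 in M-CSF cells. Both GM-CSF arrays lay above both M-CSF arrays, and the log2 difference of 0.53 ± 0.15 (SE, n = 2 per group) did not pass (adjusted p = 0.0835, limma). Its 95% interval ran from 0.16 to 0.90. With each array left out in turn, the difference ranged from 0.33 without GM-CSF replicate 1 to 0.73 without GM-CSF replicate 2. Only the fit without GM-CSF replicate 2 gave a call, and there the M-CSF pair is the only source of the spread.

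The 4 STAT genes differed little between the groups. Stat5a read 8.31 and 8.26 in GM-CSF cells against 7.84 and 8.05 in M-CSF cells, a log2 difference of 0.34 ± 0.12 (95% interval 0.05 to 0.63). Stat5b, the close paralog that lies beside Stat5a on chromosome 11, read 8.49 and 8.44 in GM-CSF cells against 8.37 and 8.26 in M-CSF cells, a difference of 0.15 ± 0.11 (95% interval -0.11 to 0.41). Neither passed, with an adjusted p of 0.140 for Stat5a and 0.472 for Stat5b (limma).
Stat3 read 10.10 and 10.25 in GM-CSF cells, against 10.30 and 10.23 in M-CSF cells. Stat3 differed by -0.09 ± 0.11, and the 95% interval of -0.36 to 0.18 leaves out a 2-fold change in either direction (adjusted p = 0.702, limma). Stat6 read 10.18 and 10.26 in GM-CSF cells against 10.22 and 10.16 in M-CSF cells, a difference of 0.03 ± 0.11 with a 95% interval of -0.23 to 0.28 (adjusted p = 0.921, limma). The intervals of all 4 STAT genes and of Pim1 (0.16 to 0.90) stay within 2-fold. Those of Socs1 and of Socs2, whose M-CSF values are below the background, lie above it. The intervals of Socs3 (0.93 to 1.47) and Cish (0.37 to 3.89) span it. For Socs2 this holds for the brighter probe set, and the second differed by 1.08 ± 0.45. The test of the difference between SOCS and STAT genes was not run.

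**Figure D2:**
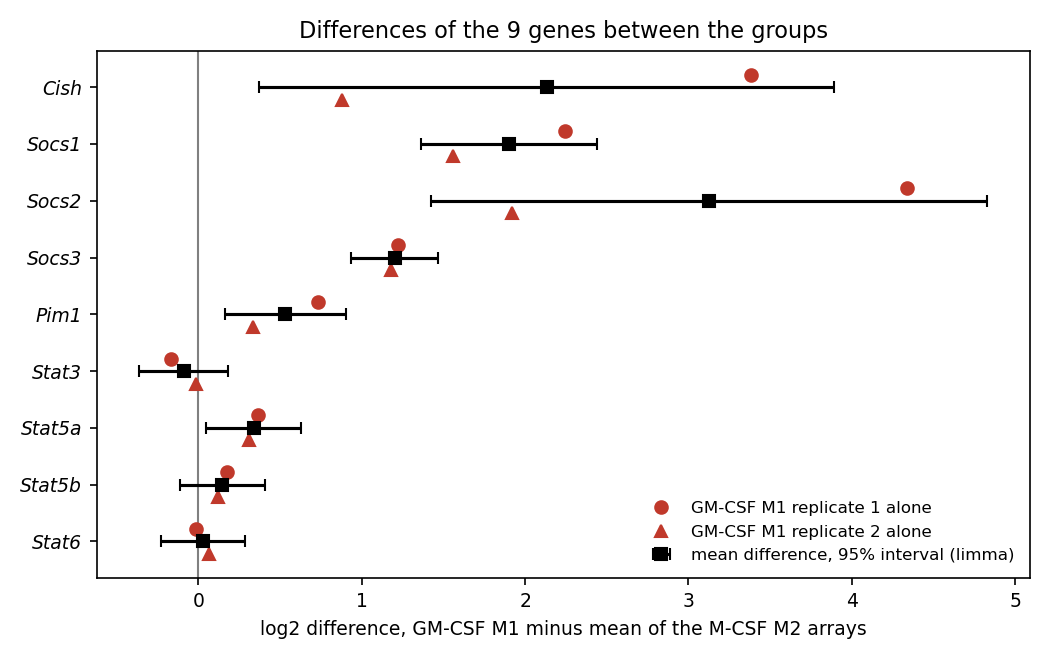
Black squares give the log2 difference of each gene, GM-CSF M1 minus M-CSF M2, with bars for the 95% interval from limma, and red symbols give each GM-CSF array alone minus the mean of the 2 M-CSF arrays (circles for replicate 1, triangles for replicate 2). The intervals of Cish (0.37 to 3.89) and Socs2 (1.42 to 4.83) are the widest of the 9, and those of Stat3, Stat5b and Stat6 include 0.

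The GM-CSF arrays differed from each other in the STAT5 target genes Cish and Socs2 far more than in the STAT genes. With 1 array on each side this is a description with no test. Cish was 5.68-fold and Socs2 5.34-fold higher in GM-CSF replicate 1 than in GM-CSF replicate 2, and 2 of the 9 genes were thus at least 2-fold higher there, against 0.807% of all genes tested (0.700% were at least 2-fold lower, 1.51% in either direction). A gap at least as wide as that of Cish was found for 17 of 14995 genes, and as that of Socs2 for 23. Socs1 was 1.60-fold and Pim1 1.32-fold higher in GM-CSF replicate 1, gaps that 3.73% and 11.8% of genes matched or exceeded. Socs3 differed by 0.05 on the log2 scale, Stat5a by 0.05, Stat5b by 0.05, Stat6 by -0.08 and Stat3 by -0.15. Between the 2 M-CSF arrays no gene of the 9 differed by more than 0.29 (Socs2, where both are below the background), and 0.0467% of all genes tested were at least 2-fold apart. The second Socs2 probe set was also higher in GM-CSF replicate 1, by 1.49.

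**Figure D3:**
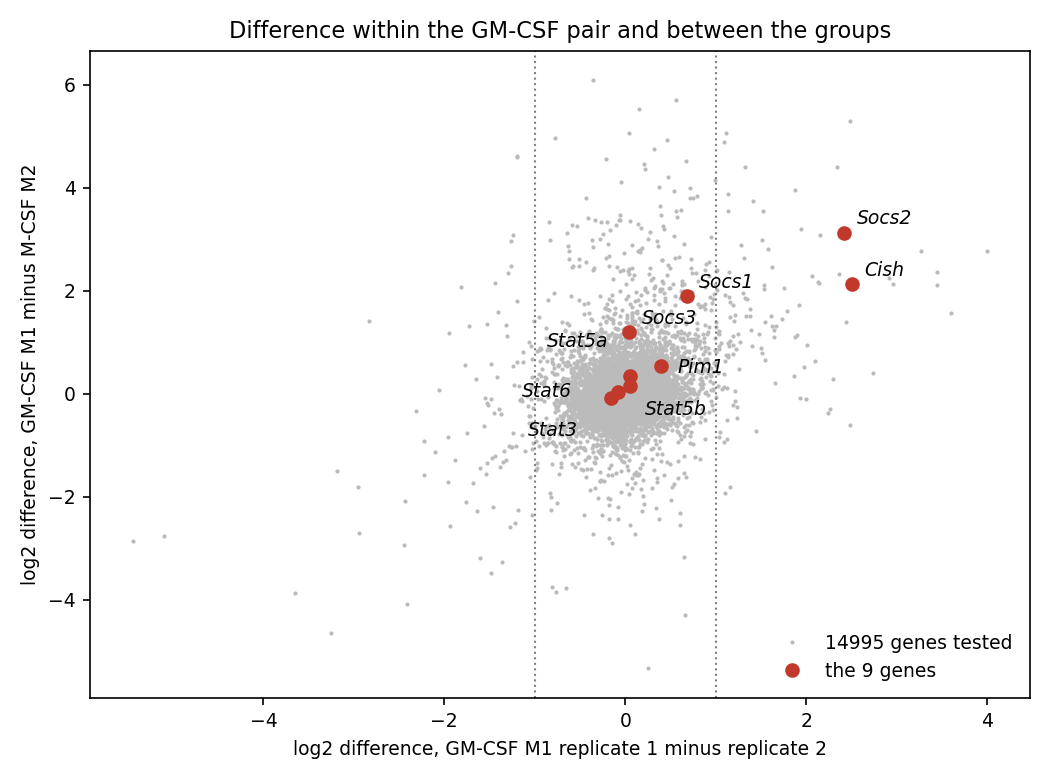
Each grey dot is 1 of the 14995 genes tested and each red dot 1 of the 9 genes, placed by the log2 difference of GM-CSF M1 replicate 1 minus replicate 2 (horizontal) and of GM-CSF M1 minus M-CSF M2 (vertical), with dotted lines at a 2-fold difference between the GM-CSF arrays. Cish and Socs2 lie beyond the right-hand line, Socs3 lies near 0 on the horizontal axis at 1.20, and the 4 STAT genes lie within the central cloud.

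Other genes with like profiles were found by the Euclidean distance between profiles over the 4 arrays, after each gene's own mean was subtracted, for the 4 genes whose arrays spanned at least 1 log2 unit. Nearest to Cish were Mmp13, a collagenase (distance 0.27), Mamdc2 (0.28) and Car4, a carbonic anhydrase (0.32). Nearest to Socs2 were Rnase2a, a ribonuclease (0.24), Tmem154 (0.46) and Itga1, an integrin chain (0.68). Socs1 was nearest to H2-DMa, which helps load peptides on MHC class II (0.09), Hcar2, the niacin receptor (0.09), and Insl6 (0.11). Socs3 was nearest to Gpr132, a G protein-coupled receptor (0.03), Sfxn3 (0.04) and the kinase gene Src (0.06). Mmp13 read 9.64 and 7.49 in GM-CSF cells, against 6.35 and 6.49 in M-CSF cells, the order that Cish shows. With 4 arrays, likeness of profiles is a description only.

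Upstream of the STATs, Csf2rb2 and Jak2 were expressed more strongly in GM-CSF cells and kept their calls without each array in turn. Of 21 receptor chains tested, 7 were higher and 5 lower, against 6.18% and 4.53% of all genes tested. The other 9 did not pass, and the median log2 difference was 0.16. Lower were Il2ra (-1.43), Lifr (-1.27, with its GM-CSF mean below the background), Csf3r (-0.86), Il4ra (-0.85) and Il6ra (-0.69). Il7r was higher by 2.34 ± 0.25 (adjusted p = 0.00317, limma). Csf2rb, which encodes the shared signalling chain for GM-CSF, was 3.99-fold higher. On the log2 scale, Csf2rb2, its close paralog for interleukin-3, was higher by 2.45 ± 0.18 and the interleukin-13 receptor chain Il13ra1 by 2.13 ± 0.23. The adjusted p was 0.00273 for Csf2rb, 0.000766 for Csf2rb2 and 0.00334 for Il13ra1 (limma). Probes may not part Csf2rb from Csf2rb2. With M-CSF replicate 1 or 2 left out, Csf2rb2 was the only receptor chain called, and far fewer of all genes tested passed. Csf2rb and Il13ra1 lost their calls there. With each array left out in turn, Csf2rb ranged from 1.69 to 2.31 and Il13ra1 from 1.82 to 2.45. Of the 3 Janus kinases tested (Jak3 was not analysed here), Jak2, the kinase of the GM-CSF receptor, was higher by 1.90 ± 0.14. Jak2 read 10.25 and 10.52 in GM-CSF cells against 8.59 and 8.39 in M-CSF cells (adjusted p = 0.000856, limma). Jak1 (0.13 ± 0.11) and Tyk2 (0.11 ± 0.10) did not pass.

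Of 8 cytokine genes tested, 4 were higher and 1 lower at an unadjusted p under 0.05 (limma), against 12.9% and 12.6% of all genes. After adjustment 2 were higher and 0 lower, against 6.18% and 4.53% of all genes tested. The higher ones were Il6, which signals through STAT3, and Osm, oncostatin M and itself a STAT5 target, higher by 1.14 ± 0.22. Il6 read 9.14 and 8.42 in GM-CSF cells against 5.15 and 4.82 in M-CSF cells, where both values are below the background. Il6 entered the test through its GM-CSF arrays alone, and its GM-CSF mean was 7.34-fold above the background level. The test of Il6 against M-CSF cells gave an adjusted p of 0.000579 (limma). The Osm call ended when M-CSF replicate 1 (adjusted p = 0.210, limma) or M-CSF replicate 2 (0.246) was left out. Il10, the anti-inflammatory cytokine that signals through STAT3, read 5.34 and 7.77 in GM-CSF cells against 8.58 and 8.68 in M-CSF cells and did not pass (-2.08 ± 0.70, adjusted p = 0.125, limma). Here GM-CSF replicate 1 was the lower array of the pair. Csf1, the M-CSF gene, differed by 1.65 ± 0.42 without passing (adjusted p = 0.0582, limma), with 8.99 and 7.61 in GM-CSF cells against 6.81 and 6.50 in M-CSF cells. Il4 was below the background on all 4 arrays, and Il13 read between 6.23 and 6.39.

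Of the 16 other inhibitor genes tested, 1 was called (6.25%), against 10.7% of all genes tested in either direction, a share near the background. None of Socs4, Socs5, Socs6 and Socs7 passed (0 higher and 0 lower with limma, and likewise 0 at an unadjusted p under 0.05), with differences from -0.24 to -0.02. Of 12 phosphatases and other brakes, 0 were higher and 1 lower, with 2 higher and 2 lower at an unadjusted p under 0.05 (limma). The lower one was Pias1, which encodes a SUMO ligase that restrains STAT signalling (-0.59 ± 0.11, adjusted p = 0.0221, limma), and its call ended without M-CSF replicate 1 (0.221) and without M-CSF replicate 2 (0.157). Stat4 (-0.80 ± 0.20) and Stat2 (0.30 ± 0.22) did not pass. Pim2, a paralog of Pim1, read 7.60 and 9.04 in GM-CSF cells against 9.56 and 9.51 in M-CSF cells (-1.21 ± 0.42, adjusted p = 0.135, limma), and Pim3 differed by 0.15 ± 0.10. Pim2 and Pim1 thus had opposite signs, without either passing.

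Further STAT target genes, in lists chosen with earlier results of these data known, did not share 1 direction. Over all genes tested, 6.18% were higher and 4.53% lower, the shares to set beside each list here. Of 9 other STAT5 targets, 1 was higher (Osm) and 2 lower, with a median of 0.12. The lower ones were Il2ra, the interleukin-2 receptor alpha chain (-1.43 ± 0.19), and Ccnd1, cyclin D1 (-1.22 ± 0.16), with adjusted p of 0.00683 and 0.00663 (limma). With each array left out in turn, Il2ra ranged from -1.71 to -1.15, Ccnd1 from -1.43 to -1.02 and Osm from 0.81 to 1.48. Their calls did not hold with either M-CSF array left out, where far fewer of all genes tested passed. Of 7 STAT3 targets, Nfil3, a transcription factor gene, was higher (0.82 ± 0.15) and Il4ra, the interleukin-4 receptor, lower (-0.85 ± 0.12), and neither call held without an M-CSF array. Of 14 STAT6 targets tested, 9 were higher and 0 lower at an unadjusted p under 0.05 (limma), against 12.9% and 12.6% of all genes. After adjustment 8 were higher and 0 lower, against 6.18% and 4.53% of all genes tested. Their median was 1.68, while Stat6 itself differed by 0.03. In 7 of the 8 the M-CSF mean lay below the background, so those differences are set against background signal. Examples are Egr2, a transcription factor (3.56 ± 0.27), Chil3, a chitinase-like protein (3.56 ± 0.36), and Arg1, arginase 1 (3.55 ± 0.19). The median of the 14 was 1.72 without M-CSF replicate 1 and 1.64 without M-CSF replicate 2. It was 0.99 without GM-CSF replicate 1, where some were also called lower, and 2.62 without GM-CSF replicate 2. Fewer of the 14 were called higher without an M-CSF array and more without a GM-CSF array, as over all genes tested. With trended and robust variances 5 of the 14 were higher (6.66% of all genes tested), and 5 at an adjusted p under 0.01 (2.92%).

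The GM-CSF arrays also differed in STAT6 targets. Of the 14 STAT6 targets, 13 read higher in GM-CSF replicate 1 than in GM-CSF replicate 2. At least 2-fold higher there were 8, against 0.807% of all genes tested. The median log2 difference was 1.14, beside -0.03 over all genes tested. Ccl17, a chemokine gene, read 10.74 in GM-CSF replicate 1 and 6.74 in GM-CSF replicate 2, against 5.99 and 5.94 in M-CSF cells. The other STAT5 targets had a median of -0.02 and 0 of 9 genes at least 2-fold apart.

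Some markers of other cells also differed between the GM-CSF arrays. Of 9 neutrophil markers tested, 6 read higher in GM-CSF replicate 1, 3 of them at least 2-fold (0.807% of all genes tested), and 3 read lower. Over all 10 on the array, the mean log2 level was 7.20 and 6.47 in GM-CSF replicates 1 and 2, against 6.32 and 6.24 in the M-CSF arrays. At least 2-fold higher were Ngp, a granule protein gene, S100a8, a calcium-binding protein gene, and Mmp8, neutrophil collagenase. Ngp read 9.02 and 7.02 in GM-CSF replicates 1 and 2, against 8.40 and 7.83 in M-CSF cells, both above GM-CSF replicate 2. S100a8 read 8.54 and 7.04 against 6.96 and 6.84, and Mmp8 read 12.91 and 11.78 against 8.75 and 8.20. Elane, Camp and Mpo went the other way between the GM-CSF arrays, with log2 differences of -0.18, -0.17 and -0.02. Ly6g, which marks neutrophils, read 6.18 in GM-CSF replicate 1, above the background, and 5.45 in GM-CSF replicate 2, below it, against 4.49 and 5.10 in M-CSF cells. Cxcr2, a neutrophil chemokine receptor, was below the background on all 4 arrays. The 4 eosinophil markers averaged 6.41 and 5.77 in GM-CSF cells, against 5.87 and 6.07 in M-CSF cells, with Ccr3 below the background on all 4 arrays. Epx, eosinophil peroxidase, read 6.12 in GM-CSF replicate 1, above the background, and 5.16 in GM-CSF replicate 2, against 4.91 and 5.25 in M-CSF cells. The 10 dendritic cell markers averaged 7.23 and 7.03 in GM-CSF cells, against 6.04 and 6.01 in M-CSF cells. Of these, 4 (Ccr7, Cd24a, Clec9a and Itgax) were higher in GM-CSF cells, against 6.18% of all genes tested. Clec9a entered the test through its GM-CSF arrays alone, and Clec9a and Itgax had M-CSF means below the background. Flt3, Xcr1 and Dpp4 were below the background in both groups. The 5 proliferation markers tested all read higher in GM-CSF replicate 1, and the 8 dissociation stress genes all read lower there, with means of 8.06 and 8.70 in GM-CSF cells against 7.90 and 8.05 in M-CSF cells. Of 23 markers of mast cells and basophils, T and NK cells, B cells and fibroblasts on the array, 1 was at least 2-fold apart between the GM-CSF arrays. It was Cpa3, mast cell carboxypeptidase, with 5.91 in GM-CSF replicate 1, at the background, and 4.46 in GM-CSF replicate 2. The part of these differences in the gap of Cish and Socs2 was not tested.

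**Figure D4:**
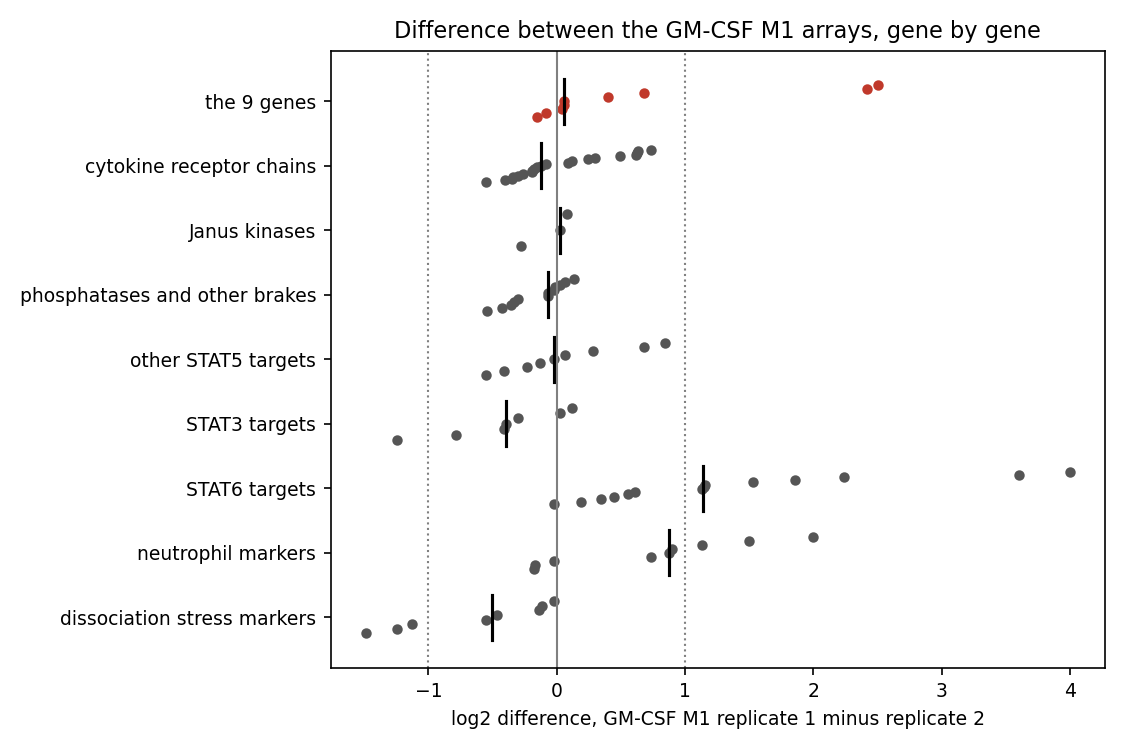
Each dot is a gene, placed by the log2 difference of GM-CSF M1 replicate 1 minus replicate 2, in rows for the 9 genes (red) and for lists of pathway and marker genes (grey), with a black bar at each row's median and dotted lines at 2-fold. Cish and Socs2 stand to the right of the other 7 genes, and the STAT6 targets centre on 1.14.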

How the data were processed

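Expression was measured on 4 one-colour Affymetrix arrays. Per the submitters' processing notes, the authors used RMA and Affymetrix Expression Console 1.1. The deposited values are log2, with 1 value per probe set. The summarisation level, scan dates and detection calls are not given in the sources used here. The number of arrays limits the precision.

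Of 35556 probe sets, 21789 had exactly 1 symbol in the platform annotation. Genes entered when at least 2 arrays lay above their own 30th percentile, which left 14995. The groups (GM-CSF M1 minus M-CSF M2, 2 arrays each) were compared with lmFit and eBayes of limma 3.58.1 (R 4.3.3, a two-sided test whose degrees of freedom were 2 residual plus 4.17 prior), Benjamini-Hochberg adjusted over all genes tested, and the fit was tested on simulated data. Python 3.11.15 prepared summaries and plots. The members and gene lists were chosen with earlier results of these data known. Named are the 9 genes, up to 4 genes per pathway list by absolute difference, and the 3 nearest profiles; other list genes were named after their values were seen. Predicted genes were passed over for the profiles. One further list of target genes is not reported here.

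Alternatives were other filters, quantile normalization, median centring, probe set means, trended and robust variances, a replicate block, array weights, an adjusted p of 0.01 and leaving out each array. A lower probe set of Socs2 and Socs3 was added after seeing the data. Same-numbered arrays' deviations from their group means correlated at r = 0.06 across genes, so the numbers were not taken as pairs.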

Additional observations from a re-analysis of the deposited data

How the results depend on the processing

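Socs1 and Socs3 kept their calls under every alternative over 4 arrays, namely no filter, the stricter filter, quantile normalization, median centring, probe set means, the lower probe sets, trended and robust variances, the replicate block, array weights and an adjusted p of 0.01. Socs2 lost its call with no filter (adjusted p = 0.0512), quantile normalization (0.0520), probe set means (2.10, adjusted p = 0.0711), trended and robust variances (0.277) and an adjusted p of 0.01, and, in the alternative added after seeing the data, with its lower probe set (all limma). The cause was not tested. With the replicate number as a block, Socs2 differed by 3.13 (adjusted p = 0.0270) and Cish by 2.13 (0.0827, limma), and 3 of the 9 genes were higher as before. Among the named genes, the block added the calls of Csf1 (0.0143) and Stat4 (0.0341, limma). Median centring (0.0316 and 0.0358, limma) and array weights (0.0326 for Csf1, limma) also added the calls of Csf1 and Stat4. With 1 array left out, the number of the 9 genes called higher ran from 0 to 5 and the number called lower stayed at 0. The fits without an M-CSF array rest on the wider GM-CSF pair alone. The difference ranged from -0.013 to 0.067 for Stat6, from -0.17 to 0.13 for Socs4, from -0.39 to 0.23 for Socs6, from -0.15 to 0.020 for Socs7, from -0.043 to 0.64 for Stat2, from -0.11 to 0.73 for Ccnd2, from -0.75 to 0.037 for Bcl3 and from -0.085 to 1.16 for Fos, so their sign depended on the array left out. Cish ranged from 0.88 to 3.38. At least 2-fold between the GM-CSF arrays were 2 of the 9 genes under each scaling and probe set choice tried, with Socs2 at 1.95 for probe set means. Signal near the background limits the folds of Socs2, Cish and Il6.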
